A study of Mus musculus with 18 samples.

Results

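The comparison of FoxA1 knockout with wild-type mouse fore footpad skin at postnatal day 14 (P14) covered 23449 array probes, those of 42006 on the array whose skin signal was well above background on at least 3 of the 6 arrays of that age. Of these, 23447 were tested, because 2 had no value in any array of a group. The groups were 3 knockout and 3 wild-type littermates, given as C57BL/6 and mixed sex, and the same pair of groups was measured at P10 and P31, making 18 arrays in all. Each array carried Cy3-labelled skin RNA and a Cy5-labelled common reference, a pool of 11 mouse cell lines mixed 2:1 with embryonic stem cell RNA of the 129 strain. The labels give the knockout no allele, promoter or Cre driver, and do not say in which cells the gene was deleted. The design text calls the animals embryos although the ages are postnatal.

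FoxA1 is a forkhead transcription factor that can bind its sites in closed chromatin and open them for other factors. It acts in many glandular epithelia. Hairless footpad skin is where mice carry eccrine sweat glands, whose secretory coil moves chloride and water into the lumen through channels and cotransporters. The series title names 2 of these, Best2, a calcium-gated anion channel, and Nkcc1, the sodium-potassium-chloride cotransporter encoded by Slc12a2. Whole footpad skin also holds epidermis, dermis, fat, muscle, vessels and nerve, so that fewer cells of a type and less RNA per cell cannot be told apart.

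At P14 the knockout differed from wild type at 7 probes, of which 6 fell and 1 rose. A probe was called where limma's adjusted p (Benjamini-Hochberg, over all tested probes) was under 0.05 and the fold was over 1.5, the limits that the series design names. That is 0.0299% of the tested probes, with 0.0256% lower and 0.00426% higher. The split by direction depended on the processing. Array quality weights called 156 probes, 117 up and 39 down. The scanner's own log ratio called 11 probes, 4 up and 7 down, and the deposited values called 8, of which 3 were up and 5 down. In the ratio of skin over reference the measured falls ranged from 2.23-fold to 8.84-fold, that of L1 had a bound of at least 8.20-fold, and the rise was 2.31-fold. In Cy3 alone each measured change was larger. The measured falls there ran from log2 -1.96 for L3 and L4 to -5.55 for L2, with -2.62 for L5. The scanner files give these probes no gene, so they are shown by their 60-base sequences, 5′ to 3′ on the strand of the probe, and are named L1 to L6 for those lower in the knockout and H1 for the one higher, in order of p. L1 is Z00025973-1, L2 is Z00047679-1 and H1 is Z00023161-1 on the array. These are the sequences by which the transcripts behind the result can be identified.
L1: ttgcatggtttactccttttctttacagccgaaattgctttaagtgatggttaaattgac
L2: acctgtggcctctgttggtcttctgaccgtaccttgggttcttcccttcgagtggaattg
L3: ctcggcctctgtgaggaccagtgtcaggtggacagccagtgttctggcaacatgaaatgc
L4: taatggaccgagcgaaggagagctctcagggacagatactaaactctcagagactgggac
L5: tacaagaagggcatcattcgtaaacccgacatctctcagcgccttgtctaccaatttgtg
L6: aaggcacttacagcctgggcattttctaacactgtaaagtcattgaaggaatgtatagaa
H1: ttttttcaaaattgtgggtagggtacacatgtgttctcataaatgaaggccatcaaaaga

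The 7 sequences had little in common by simple measures. Their G and C content ran from 21 of 60 bases (L1 and H1) to 34 of 60 (L3), against a median of 26 over all probes of the array. L1 had a stop codon in each of its 3 sense reading frames, which was so for 16.6% of all probes, while each of the other 6 had at least 1 open frame. None of the 7 held either of the common polyadenylation hexamers, AATAAA or ATTAAA, read on the probe strand, and 9.9% of all probes held one. None of the 7 shared 30 or more bases with another tested probe, so no second tested probe measures the same stretch.

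L1 gave a skin signal in wild type and none well above background in the knockout. Its log2 ratio of skin over reference was 0.27, 0.63 and 1.04 on the wild-type arrays and -2.64, -2.52 and -2.50 on the knockout arrays. The highest knockout array lay 2.77 log2 units below the lowest wild-type array. The Cy3 signal of the skin was 820 to 2100 in wild type and 14.6 to 22.7 in the knockout, while the reference in Cy5 read 667 to 1090 over the 6 arrays. Since no knockout array was well above background, the fall has only a bound, at least 8.20-fold, from a wild-type mean of 9.62 against a floor of 6.59 on the log2 Cy3 scale. The fitted difference was -3.20 (SE 0.27, n = 3 and 3, adjusted p = 2.35e-05 by limma), which is set by the offset of the background correction and is no measure of size.

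L2 was measured on all 6 arrays. Its log2 ratio was 4.02, 4.37 and 4.44 in wild type and 0.81, 1.09 and 1.50 in the knockout. The means were 4.28 ± 0.23 and 1.13 ± 0.35 (SD, n = 3 each), a difference of -3.14 (SE 0.267, adjusted p = 2.35e-05 by limma) or 8.84-fold. In the skin channel alone the fall was larger, with 24000 to 38100 in wild type and 566 to 925 in the knockout, a log2 difference of -5.55 after scaling to the 75th percentile of each array. The Cy5 reading of this probe moved too, from 1100 to 2270 on the wild-type arrays to 247 to 280 on the knockout arrays, although one reference was hybridised to all. A ratio over that reading therefore holds a smaller difference than the skin channel does, and the cause of the Cy5 difference was not tested. Over all tested probes the genotype difference of the Cy5 reading had an SD of 0.10 log2 units where the skin was below the reference (10700 probes) and 0.39 where it was over 16-fold above (798 probes). In these classes it correlated with the Cy3 difference at 0.282 and 0.597 over probes, which share the same 6 arrays and spots.

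L3 and L4 fell by about the same amount. For L3 the log2 ratios were 3.06, 3.06 and 3.26 in wild type and 1.40, 1.51 and 1.75 in the knockout, a difference of -1.57 (SE 0.14, adjusted p = 3.08e-05 by limma) or 2.98-fold. For L4 they were 2.18, 2.42 and 2.56 in wild type and 0.59, 0.71 and 1.09 in the knockout, a difference of -1.59 (SE 0.154, adjusted p = 8.09e-05 by limma) or 3.01-fold. Both were still measured in the knockout, with Cy3 signals of 4490 to 6450 for L3 and 640 to 897 for L4. Their Cy5 readings differed by -0.28 and -0.17 log2 units between genotypes, small beside the change in skin.

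L5 and L6 fell as well, and lost their calls when slide was a fixed block. L5 had log2 ratios of 1.30, 1.35 and 1.66 in wild type and 0.18, 0.28 and 0.39 in the knockout, a difference of -1.16 (SE 0.129, adjusted p = 0.000481 by limma) or 2.23-fold. It was well above background on 2 of the 3 knockout arrays, and in Cy3 alone the difference was -2.62, with the Cy5 reading down by 0.97 log2 units as well (31.6 to 46 in the knockout against 48 to 106 in wild type). L6 had log2 ratios of 2.00, 2.14 and 2.53 in wild type and 0.30, 0.30 and 0.68 in the knockout, a difference of -1.80 (SE 0.213, adjusted p = 0.000892 by limma) or 3.48-fold. Its Cy5 reading was 105 to 148 with no separation by genotype. In Cy3 alone its difference was larger, at -2.30, and did not pass (adjusted p = 0.238 by limma). The groups did not overlap for either probe.

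H1 was the only called probe that rose. Its log2 ratio was -1.20, -1.13 and -0.69 in wild type and -0.10, 0.30 and 0.39 in the knockout. The means were -1.01 ± 0.28 and 0.20 ± 0.26 (SD, n = 3 each), a difference of 1.21 (SE 0.191, adjusted p = 0.0317 by limma) or 2.31-fold. The Cy3 signal rose from 311 to 512 in wild type to 980 to 1420 in the knockout, and Cy5 stayed within 963 to 1170. This call rests on the arrays and the model used. Its adjusted p was 0.0614 by limma when the 6 arrays of P14 were fitted alone, a fit that called 17 probes (0.0725%), 6 of the 7 among them. Dropping any of 4 single arrays (knockout 2, knockout 3, wild type 1, wild type 2) also ended it, with an adjusted p of up to 0.302.

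Array position was not balanced between the genotypes. The 3 knockout arrays and wild-type replicate 1 lay on one slide, and wild-type replicates 2 and 3 on another. Within the shared slide, where the 3 knockout arrays face 1 wild-type array, the differences were -2.82 for L1, -3.23 for L2, -1.51 for L3, -1.63 for L4, -1.07 for L5, -1.58 for L6 and 1.33 for H1. With slide as a fixed block the adjusted p by limma was 0.0214, 0.000342, 0.032 and 0.0354 for L1 to L4, and 0.235, 0.241 and 0.278 for L5, L6 and H1. Since no groups overlapped, the sign of these values was fixed in advance. Here the lone wild-type array is assumed to vary like the arrays of the other groups, which supply the spread; 4 of the 7 stayed past the threshold. With slide as a random effect, where the estimated correlation within slides was -0.0202, all 7 were called.

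The threshold itself fell between near neighbours. H1 was the last probe inside it, and the first outside was a probe lower in the knockout, here L7, which was chosen after its values were seen and whose polyadenylation hexamer is in capitals.
L7: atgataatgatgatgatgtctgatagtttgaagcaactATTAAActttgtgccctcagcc
L7 had log2 ratios of 0.29, 1.11 and 1.43 in wild type and -1.50, -1.40 and -1.25 in the knockout, and was well above background on 3 of 3 wild-type arrays and 0 of 3 knockout arrays. The bound on its fall was at least 4.69-fold, and its adjusted p by limma was 0.0594. Its wild-type SD of 0.59 was larger than that of any of the 7 called probes. L7 was called when the 6 arrays of P14 were fitted alone (adjusted p = 0.0184 by limma). Over the tested probes 12 had an adjusted p under 0.1.

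The next probe higher in the knockout, H2 (Z00031575-1), had log2 ratios of 0.18, 0.31 and 0.56 in wild type and 1.04, 1.19 and 1.41 in the knockout. The difference was 0.86 (SE 0.155, adjusted p = 0.0896 by limma) or 1.82-fold, which did not pass. Its sequence is given for comparison with H1.
H2: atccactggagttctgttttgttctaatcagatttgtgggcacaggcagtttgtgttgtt

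Larger differences than that of H1 were measured and did not pass, and had larger SE. The largest difference upward, at a probe picked for its size, was 2.09 (SE 0.636, adjusted p = 0.493 by limma), with log2 ratios of 0.85, 0.99 and 1.51 in wild type and 2.93, 3.10 and 3.58 in the knockout.
Largest upward difference: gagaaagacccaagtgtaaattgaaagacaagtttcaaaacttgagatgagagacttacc
With the 6 arrays of P14 fitted alone this probe was called (SE 0.208, adjusted p = 0.0126 by limma). Its arrays did not overlap at P14, and the same difference was -0.47 at P10 and 0.08 at P31. The next in size, at 1.86 (SE 0.602, adjusted p = 0.493 by limma), also had groups apart at P14. Its difference was -0.69 at P10 and -1.07 at P31. Another probe, at 1.59 (SE 0.474, adjusted p = 0.486 by limma), had wild-type ratios of -2.95, -2.72 and -1.07 and knockout ratios of -0.93, -0.89 and -0.15. It was higher in the knockout at the other ages as well, by 2.73 at P10 (adjusted p = 0.0675) and by 1.49 at P31 (adjusted p = 0.532).
Higher at all 3 ages: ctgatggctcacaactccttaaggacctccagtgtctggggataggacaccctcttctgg

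Most of the array differed little between genotypes. The difference had a median of 0.00, a 5th to 95th percentile of -0.35 to 0.45 and a median size of 0.15 log2 units, equal to its median SE of 0.15. A fold over 1.5 was seen at 641 probes (2.73%), 491 higher and 150 lower, and a fold over 2 at 25 higher and 22 lower. The unadjusted p was under 0.05 at 2364 probes (10.1%), 1308 higher and 1056 lower. That count moved both ways with single arrays. It was 933 (3.98%) without wild-type replicate 3, 2156 (9.2%) without replicate 1 and 2850 (12.2%) without replicate 2. Without knockout replicates 1, 2 and 3 in turn it was 2463 (10.5%), 1089 (4.64%) and 1536 (6.55%). With slide as a fixed block it was 1203 (5.13%). The 3 knockout arrays lay wholly above or below the 3 wild-type arrays at 5612 probes (23.9%), 2970 higher (12.7%) and 2642 lower (11.3%). Of these, 398 higher and 118 lower also passed a fold of 1.5, out of 23447 tested probes. This set is named here as separated probes and was chosen from the same contrast, so that its P14 values are a description.

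The separated probes leaned one way by base composition. Among the 6465 tested probes with 10 to 23 G and C bases, 123 separated probes were higher and 23 lower in the knockout. The counts were 196 and 29 of 8479 probes at 24 to 27 bases, and 41 and 14 of 2717 at 28 to 30. Among the 5786 with 31 to 52 bases they were 38 and 52. The median difference over all tested probes in these classes went from 0.06 through 0.03 (24 to 27 bases) and -0.02 (28 to 30) to -0.09. P10 ran the same way, from 0.05 to -0.05, and P31 did not, at 0.02 and 0.04. Within the shared slide the median went from 0.06 to -0.10. That slide holds 1 wild-type array, and the wild-type arrays did not run alike. The median deviation from the probe mean went from the lowest to the highest class from -0.03 to 0.05 in wild-type replicate 1, from -0.02 to -0.05 in replicate 2 and from -0.05 to 0.11 in replicate 3. In the knockout arrays it went from -0.01 to -0.06, from 0.05 to -0.06 and from 0.05 to -0.01. The part of base composition in the separated probes was not tested.

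Probes that share sequence gave like values. In 601 pairs of tested probes that overlap by 30 or more bases, the P14 differences of the pair had the same sign in 90.7%, with a median gap of 0.05 log2 units and a correlation of 0.935 over pairs, which share arrays and target. In 10 pairs of identical sequence the largest gap was 0.15. The pair with the lowest p among those with groups apart, chosen after values were seen, was lower in the knockout at both probes without passing, and is shown with the 53 shared bases in capitals.
Pair, first: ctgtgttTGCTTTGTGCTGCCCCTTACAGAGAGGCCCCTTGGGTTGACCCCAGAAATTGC
Pair, second: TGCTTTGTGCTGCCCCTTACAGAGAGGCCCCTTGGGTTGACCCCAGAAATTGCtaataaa
The first went from -3.15 ± 0.21 to -3.83 ± 0.05 (SD, n = 3 each; difference -0.68, adjusted p = 0.15 by limma) and the second from -3.03 ± 0.16 to -3.77 ± 0.06 (difference -0.74, adjusted p = 0.105). The same pair differed by -0.16 and -0.25 at P10 and by 0.19 and 0.22 at P31. Another pair, sharing 59 bases, had larger differences in the other direction, 0.87 and 0.96 (adjusted p = 0.457 and 0.348 by limma).

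The falls at P14 were seen at the other ages too. For L1 to L6 every knockout array lay below every wild-type array at P10 and at P31 as well. L1 was at least 7.04-fold lower at P10 and at least 7.99-fold lower at P31 (adjusted p = 6.84e-06 and 4.39e-05 by limma), bounds again, with 0 of 3 knockout arrays well above background at each age. L2 differed by -3.54 and -2.17 (adjusted p = 6.84e-06 and 0.00444). L3 differed by -1.58 at P10 (adjusted p = 3.03e-05) and -0.77 at P31 (0.103), L4 by -1.35 (0.000812) and -0.81 (0.137), L5 by -0.76 (0.0675) and -0.43 (0.532), and L6 by -1.74 (0.0017) and -1.22 (0.0805). At P31 L5 was near background, with 1 of 3 knockout arrays well above it. Its Cy3 signal there was 34.4 to 61 in the knockout and 134 to 197 in wild type. The offset of the background correction therefore weighs on its P31 difference. Over the same probes 6 were called at P10 (0.0256%) and 3 at P31 (0.0128%).

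The knockout means of L2, L3, L4, L6 and H1 were highest at P31, though a difference between ages was not tested here. The knockout mean of L3 was 0.40 ± 0.06 at P10, 1.55 ± 0.18 at P14 and 2.50 ± 0.34 at P31, while wild type stood at 1.98 ± 0.06, 3.13 ± 0.11 and 3.28 ± 0.03 (SD, n = 3 each). L4 gave -0.03 ± 0.04, 0.80 ± 0.26 and 1.75 ± 0.28 in the knockout and 1.32 ± 0.15, 2.39 ± 0.19 and 2.56 ± 0.13 in wild type. By log2 ratio, the P31 gap was the smallest of the 3 ages for L2, L3, L4, L5 and L6. This ranking did not hold for L2 and L5 in the Cy3 signals, which are not scaled between arrays. There the mean log2 gap of each was smaller at P10 than at P31, and L5 was near background at P31. The Cy5 reading of L2 at P31 was 2470 to 3210 in wild type and 302 to 365 in the knockout. Its Cy3 signal was 8190 to 9450 against 325 to 356 at P10, and 43600 to 54300 against 931 to 2990 at P31. A test of the P14 difference against the mean of the P10 and P31 differences gave an adjusted p of 0.994 for L2 to L6, and called 0 of all tested probes by limma (999, or 4.26%, at an unadjusted p under 0.05). For L1 this contrast holds values at background in the knockout at each age and shows nothing about age. No probe was therefore shown to differ by genotype at P14 otherwise than at the other ages. A change in the difference from P14 to P31 alone was not tested.

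H1 was above wild type at all 3 ages, by 0.63 at P10 (adjusted p = 0.999 by limma), 1.21 at P14 and 1.16 at P31 (adjusted p = 0.0572). H2 was above by 0.64 at P10 and overlapped at P31, where the difference was -0.16. L7 was well above background on 2 of 3 wild-type and 0 of 3 knockout arrays at P10 (adjusted p = 0.675 by limma). Its log2 ratios there were -1.30, 0.43 and 0.76 in wild type and -1.79, -1.69 and -1.40 in the knockout. With 1 wild-type array at background, no bound on the fall is given for P10. At P31 its difference was -2.58 (adjusted p = 0.0459), with 2 of 3 knockout arrays well above background.

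The separated probes had the same sign more often at P10 than at P31. Of the 398 higher ones, 363 (91.2%) were also higher at P10, where 50.7% of all tested probes were, with a median of 0.27. At P31 it was 170 (42.7%, all probes 57.0%), with a median of -0.09. Of the 118 lower ones, 99 (83.9%) were lower at P10, where 49.3% of all were, and 74 (62.7%) at P31, where 43.0% were. The ages share no animals, but wild-type replicates 2 and 3 of P14 lay on one slide with knockout replicates 1 and 2 of P31. The part of this slide in the P31 values was not tested.

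Detection by genotype gave few clear cases. Of the tested probes, 21009 (89.6%) were well above background on all 6 arrays. Another 10 were well above background on 3 wild-type and 0 knockout arrays, L1 and L7 among them, and 147 on 0 wild-type and 3 knockout arrays. The 147 had a median Cy3 signal of 72.2, and none was called. Their choice fixes the sign of their median difference, 0.20, as it does for the -0.47 of the 10. The number of probes well above background was 23899 ± 503 in the knockout and 23066 ± 937 in wild type (SD, n = 3 each; exact two-sided permutation p = 0.3, where 0.1 is the smallest possible).

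A gene could be given only where a probe matched at least 30 of the first 50 bases after a RefSeq transcription start (GRCm38.p6), which held for 155 probes with 1 gene, 52 of them tested. None of the 52 was called (lowest adjusted p = 0.494 by limma), and 7 had an unadjusted p under 0.05, 3 higher and 4 lower, with a median difference of -0.11. Their groups were apart at 5 higher (9.62%, against 12.7% of all tested probes) and 11 lower (21.2%, against 11.3%). Among all tested probes with 31 to 52 G and C bases these shares were 5.62% and 16.6%. The part of base composition in the values of the 52 was not tested. Arhgap27os3, an opposite-strand transcript whose matched bases lie at chr11:103344762-103344802 on the plus strand, was 0.66 ± 0.10 in wild type and 1.26 ± 0.23 in the knockout, a difference of 0.60 (SE 0.27, adjusted p = 0.494). Whether this probe also reads an overlapping gene was not tested.

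The other 6 at an unadjusted p under 0.05 did not pass either. Rps25 and Rpl10a, ribosomal proteins, differed by 0.40 and 0.44, with overlapping groups. Mif, a cytokine (matched at chr10:75860228-75860276, minus strand), was 0.21 ± 0.16 in wild type and -0.08 ± 0.03 in the knockout (SD, n = 3 each). Cyba, a subunit of the phagocyte NADPH oxidase, was -0.09 ± 0.32 and -0.48 ± 0.13, also with overlapping groups. Mrps21, of the mitochondrial ribosome, differed by -0.25 and Frg2f1 by -0.28. Retn, which encodes resistin of fat cells (matched at chr8:3655771-3655819, plus strand), was 1.64 ± 0.04 and 1.80 ± 0.12, a difference of 0.17 with a 95% half-width of 0.37. Lce1l, a cornified envelope gene of late epidermis (matched at chr3:92851238-92851267, minus strand), was 3.84 ± 0.03 and 3.75 ± 0.05, a difference of -0.10 with a half-width of 0.41; its match covers 30 bases and its family holds near copies.

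Of 296 genes in lists of sweat gland, skin and other cell type markers, 4 had a probe by this match and 1, Retn, was tested. Foxa1, Best2 and Slc12a2 had none, so the level of the targeted gene and the tissue markers were not analysed here, and the genotype rests on the labels. Arrays of one genotype correlated at 0.983 to 0.987 in the knockout and 0.980 to 0.984 in wild type, and between genotypes at 0.962 to 0.987. The first principal component of the 6 arrays took 47.5% of the variance and ran from -26.5 to -5.77 in the knockout and from 3.03 to 38.4 in wild type, with wild-type replicate 3 farthest out. No spot was saturated. The array number, 3 per group, limits the precision.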

How the data were processed

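Skin RNA (Cy3) and reference RNA (Cy5) were read on 2-channel Agilent arrays. The authors deposited scanner files (Agilent Feature Extraction 9.5.1.1, per the file headers) with spot and background intensity, processed signals as intensity, a log10 ratio of reference over skin, and other values, the marks for outliers and for signal well above background. They also deposited a value table in log10 units; over 13569 probes it followed the scanner ratio with a slope of 1 plus a constant per probe. The direction, skin over reference, follows from the dyes, per the labels. The files pair no probe with a gene; RefSeq starts (GRCm38.p6) named 155 probes by sequence match.

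From spot means, normexp (offset 50) and loess within each array were run with limma 3.58.1 in R 4.3.3; outlier spots were missing (2 to 7 per array), and 42034 spots were averaged to 42006 probes. The main fit used 6 group means over 18 arrays (12 residual degrees of freedom), and P values are two-sided limma values adjusted over the 23447 tested probes. The steps were tested on simulated data. For a group with no array well above background, the bound set the brighter group's mean Cy3 log2 level after loess and Aquantile against the lowest level well above background.

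All called probes were named, with the next higher probes by p up to 2 per direction; L7, the base composition classes, overlapping pairs, largest differences, ages and gene matches were chosen after values were seen. Members and gene lists were chosen with earlier results of these data known. Groups come from the titles; no label says the animals are separate beyond the design text. P-values measure only the spread between these arrays. Other settings tried are in the closing section.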

Additional observations from a re-analysis of the deposited data

How the results depend on the processing

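The 7 calls were recomputed under other background corrections, normalizations, filters, variance models, blocks and array sets. The count rose to 11 with normexp at an offset of 0 and with the scanner's own log ratio (4 higher, 7 lower), to 17 with the 6 arrays of P14 fitted alone, which shared 6 of the 7, and to 156 with array quality weights (117 higher, 39 lower). Under the deposited table it was 8 of 15202 probes (3 higher, 5 lower), and with the probe well above background on all 6 arrays it was 5. Probes apart by genotype and over 1.5-fold numbered 398 higher and 118 lower, but 760 and 232 at an offset of 0, 975 and 322 with the scanner ratio, and 924 and 468 in Cy3 alone. Leaving out each array in turn gave 6 to 9 calls and 933 to 2850 probes at an unadjusted p under 0.05, against 2364; quality weights gave 5103 and the 6 arrays alone 4345. The replicate numbers did not pair the samples at P14 (correlations of deviations -0.442, 0.424 and -0.329) or P31 (0.395, -0.315 and -0.468), while at P10 they were 0.226, 0.378 and 0.211; with a replicate block 6 probes were called, all lower, and H1 was lost (adjusted p = 0.181 by limma). The test of P14 against the other ages called 0 probes in each of these settings that could give it. No direction reversed. L6 was lost in Cy3 alone, where its difference was larger (-2.30 against -1.80), H1 without variance moderation, and L5, L6 and H1 with slide as a fixed block. Arrays limit precision through their number, and dyes were not swapped, so a dye bias of a probe cannot be told apart from its level. Whether such a bias is common to both genotypes was not tested. The Cy5 readings of L2 and L5 differed between genotypes by -2.62 and -0.97 log2 units.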
